A study of Mus musculus with 4 samples.

Results

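A set of 10 genes of bone morphogenetic protein (BMP) signalling was followed on 4 Affymetrix arrays of sorted mouse cells. They were the ligand genes Bmp2, Bmp4, Bmp5 and Bmp7, the inhibitor-of-differentiation genes Id1, Id2 and Id3, the homeobox genes Msx1 and Msx2, and the inhibitory Smad gene Smad6. All probe sets that the array annotation paired with 1 of these 10 genes and with no other gene were taken. This gave 18 of the 45141 probe sets deposited and 10 of the 17097 genes named. The cells came from embryoid bodies, aggregates in which embryonic stem cells differentiate, of a control line (F/F) and a Snai1 knockout line (KO), which were cultured first in hanging drops and later in suspension. On day 4 the cells were separated by an antibody to Flk1, the VEGF receptor that Kdr encodes, so that each line gave a Flk1+ and a Flk1- fraction, and the resulting 4 groups had 1 array each. Below, 4 values in a row stand for the control Flk1+ and Flk1- arrays and then for the knockout Flk1+ and Flk1- arrays. The number of lines or clones behind each genotype, and what the F/F alleles are, are not given in the sources used here. For the knockout Flk1- sample, one label gives day 4 and another day 5.

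BMP ligands are secreted dimers that bind type I and type II serine/threonine kinase receptors, which phosphorylate Smad1, Smad5 and Smad9. These Smads join Smad4 and act in the nucleus on target genes. The Id genes, which encode partners that hold back basic helix-loop-helix factors, are among the most direct targets, Msx1 and Msx2 encode homeobox repressors that respond to BMP in many embryonic tissues, and Smad6 is an inhibitor that BMP signalling induces against itself. In the early mouse embryo Bmp4 is needed to form mesoderm, including the Flk1+ mesoderm that gives rise to blood and vessels. Snai1, the gene removed here, encodes a zinc finger repressor that binds E-boxes and acts on epithelial genes at gastrulation.

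Promoter sequences, each running from 250 bases before to 50 bases after a start of the gene, were matched for 7 of the 10 genes in a RefSeq table on build GRCm38.p6. Bmp2, Bmp7 and Id1 were not matched. The 4 promoters shown first belong to the genes that were 2-fold or more lower in the knockout in both fractions, and Id3 is shown as a gene that was not. Capitals mark the motifs searched on both strands, which were GGCGCC and GGAGCC (GC-rich elements bound by Smads), GTCTAGAC (a palindromic Smad element) and CAGGTG (an E-box that Snail proteins bind), and none of the matches overlapped another motif. The windows, in the order Bmp4, Msx1, Msx2, Smad6 and Id3, lie at chr14:46390620-46390919 (minus strand), chr5:37824536-37824835 (minus strand), chr13:53472731-53473030 (minus strand), chr9:64022010-64022309 (minus strand) and chr4:136143572-136143871 (plus strand), and each is written 5′ to 3′ in the direction of the gene.
Bmp4: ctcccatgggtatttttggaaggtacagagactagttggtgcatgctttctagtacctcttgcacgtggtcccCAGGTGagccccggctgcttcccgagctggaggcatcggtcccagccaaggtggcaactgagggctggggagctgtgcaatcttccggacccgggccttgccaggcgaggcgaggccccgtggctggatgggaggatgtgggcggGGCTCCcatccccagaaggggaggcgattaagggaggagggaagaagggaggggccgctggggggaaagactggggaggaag
Msx1: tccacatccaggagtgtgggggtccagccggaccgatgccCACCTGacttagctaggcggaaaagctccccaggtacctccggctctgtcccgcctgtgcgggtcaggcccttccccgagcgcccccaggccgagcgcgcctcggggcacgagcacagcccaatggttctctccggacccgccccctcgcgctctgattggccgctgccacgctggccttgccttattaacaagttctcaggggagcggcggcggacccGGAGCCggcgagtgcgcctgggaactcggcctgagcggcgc
Msx2: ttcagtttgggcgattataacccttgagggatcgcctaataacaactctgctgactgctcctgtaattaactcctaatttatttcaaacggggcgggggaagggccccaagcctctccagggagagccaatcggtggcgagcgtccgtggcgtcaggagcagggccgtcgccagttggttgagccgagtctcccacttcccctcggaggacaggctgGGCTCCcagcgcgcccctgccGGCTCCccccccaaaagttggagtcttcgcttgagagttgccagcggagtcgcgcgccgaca
Smad6: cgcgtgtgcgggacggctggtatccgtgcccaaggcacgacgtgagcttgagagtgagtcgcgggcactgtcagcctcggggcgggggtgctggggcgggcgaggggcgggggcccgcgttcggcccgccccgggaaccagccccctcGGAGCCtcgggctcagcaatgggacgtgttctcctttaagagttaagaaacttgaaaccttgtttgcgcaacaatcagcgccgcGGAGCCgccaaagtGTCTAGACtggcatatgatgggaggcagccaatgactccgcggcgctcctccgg
Id3: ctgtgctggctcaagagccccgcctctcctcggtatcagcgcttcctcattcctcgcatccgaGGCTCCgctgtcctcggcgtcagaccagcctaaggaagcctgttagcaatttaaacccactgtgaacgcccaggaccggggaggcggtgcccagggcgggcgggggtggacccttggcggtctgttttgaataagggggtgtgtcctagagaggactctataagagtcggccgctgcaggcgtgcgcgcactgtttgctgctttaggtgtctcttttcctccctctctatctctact

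GGAGCC was in 6 of the 7 promoters, all but that of Bmp5, against 30.8% of the 32851 promoters in the table. In the Msx2 promoter it lay 33 and 12 bases before the start, and in the Smad6 promoter 102 and 18 bases before it. The Smad6 promoter also held GTCTAGAC, beginning 4 bases before the start, a motif found in 0.213% of all promoters. GGCGCC was in the Id2 promoter only among the 7 (11.9% of all promoters). CAGGTG was in those of Bmp4, 177 bases before the start, and Msx1, 210 bases before it (20.2% of all promoters). The GC content was 60% in Id3, 64% in Bmp4 and 70% in Msx1, against a median of 52.67% over the table, and 43.33% in Bmp5. These matches describe the letters in the windows and do not show binding.

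The values are deposited log2 expression values, so a difference of 1 is 2-fold. A floor of 3.19, the 40th percentile of all gene values on all arrays, was used to separate genes with signal from the rest, and 10958 genes were above it on at least 1 array. A gene is represented by its probe set with the highest mean, and it was counted as different where the difference was at least 2-fold and any array of the comparison put it above the floor. A single array stood for each group here, so the differences within a fraction or a line have no replicate check, and all values below are descriptions without a test. The one spread that could be read, between probe sets of the same gene on the same arrays, had an SD of 0.24 and 0.21 for the genotype differences in Flk1+ and Flk1- cells, and it holds no variation between cultures. Kdr was at 8.92 and 4.55 in control Flk1+ and Flk1- cells and at 9.03 and 3.88 in the knockout ones, as the sort labels say, while Snai1 was below the floor on all 4 arrays and does not check the genotype. Gapdh control probes at the 3′ end exceeded those at the 5′ end by an amount that reflects RNA and labelling quality and that ranged from 1.47 in knockout Flk1+ to 2.05 in control Flk1+ cells, and its part in the results was not tested.

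Of the 10 genes, 4 were 2-fold or more lower in knockout than in control Flk1+ cells, namely Bmp4, Msx1, Msx2 and Smad6, and 0 were higher. That is 40% of the genes, while 0.975% of all 10666 genes above the floor were lower by this rule. In Flk1- cells 5 were lower, the same 4 and Bmp5, and 0 were higher, which is 50% against 0.949% of 10538 genes. Over both fractions, 4 of the 10 genes and 0.371% of all genes were lower by this rule. The 10 genes and the rule were chosen with earlier results of these data known, so these shares are descriptions and not a test. The median difference of the 10 genes was -0.67 in Flk1+ and -0.84 in Flk1- cells, against -0.05 and 0.04 for all genes. The 3 Id genes, Bmp2 and Bmp7 were under 2-fold in both fractions. In sorted bulk cells, fewer cells that express a gene and less RNA per cell cannot be told apart.

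**Figure D1:**
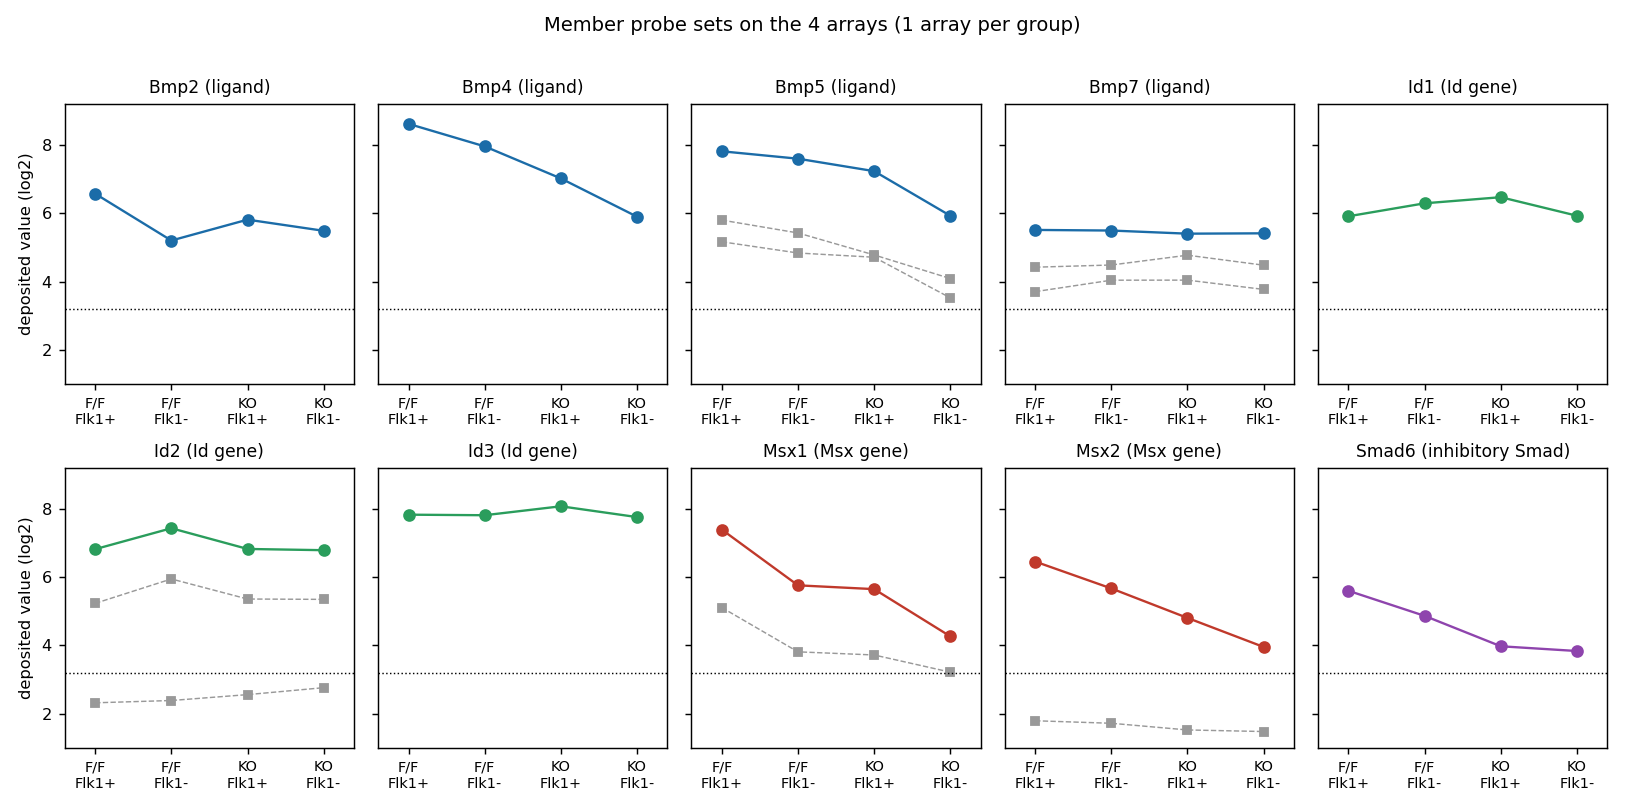
Deposited log2 value (y axis) of each member probe set on the 4 arrays (x axis, F/F for control and KO for knockout). Coloured circles are the probe set used for the gene, grey squares the other probe sets, lines only join the points of a probe set, and the dotted line is the floor of 3.19. Bmp4, Bmp5, Msx1, Msx2 and Smad6 step down from control Flk1+ to knockout Flk1- cells, and Bmp7 and the Id genes vary less.

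Among the ligands, Bmp4, the main mesoderm-inducing BMP of the early embryo, was at 8.62 and 7.96 in control Flk1+ and Flk1- cells, and at 7.02 and 5.90 in the knockout ones. Both knockout values were below both control values. The knockout was lower by a factor of 3.03 in Flk1+ cells (difference -1.60) and 4.16 in Flk1- cells (-2.06), the largest genotype difference of the 10 genes in that fraction. Bmp4 had 1 probe set, so no second reading within the arrays was available.

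Bmp5, a ligand of the Bmp5, Bmp6 and Bmp7 subfamily, was at 7.81, 7.60, 7.23 and 5.93 on the same arrays. The knockout Flk1- array stood below the other 3. The genotype difference was -0.58 in Flk1+ and -1.67 in Flk1- cells, and the 2 other probe sets gave -1.02 and -0.45 in Flk1+ cells and -1.33 and -1.31 in Flk1- cells. The 3 probe sets therefore gave the same sign in both fractions but lay on either side of the 2-fold line in Flk1+ cells.

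Bmp2, the closest relative of Bmp4, was at 6.57, 5.20, 5.81 and 5.49. It was highest in control Flk1+ cells and lowest in control Flk1- cells, with both knockout values between them. Its genotype difference was -0.76 in Flk1+ and 0.28 in Flk1- cells, neither of them 2-fold. Bmp7, a ligand also found in epithelia, was at 5.51, 5.49, 5.40 and 5.41, a range of 0.11 over the 4 arrays. Its 2 other probe sets had genotype differences of 0.35 and 0.34 in Flk1+ and -0.01 and -0.27 in Flk1- cells, so the direction in Flk1+ cells depended on the probe set.

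Msx1 was at 7.38 and 5.75 in control Flk1+ and Flk1- cells, and at 5.64 and 4.26 in the knockout ones. The control Flk1+ array was highest, and control Flk1- and knockout Flk1+ cells differed by little. The knockout was lower by a factor of 3.35 in Flk1+ cells (-1.74) and 2.82 in Flk1- cells (-1.49). The second probe set, at 5.10, 3.81, 3.71 and 3.21, gave -1.39 and -0.59, so that the Flk1- difference was under 2-fold there. Its lowest value was close to the floor. The probe set used ends in _s_at, a type designed to match several transcripts.

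Msx2 was at 6.45, 5.66, 4.80 and 3.95. Both knockout values were below both control values, and within each genotype the Flk1+ value was higher. The knockout was lower by a factor of 3.14 in Flk1+ (-1.65) and 3.28 in Flk1- cells (-1.71). A second probe set, from 1.47 to 1.79, was below the floor on all arrays and carried no signal to compare. With the mean of both probe sets the differences were -0.96 and -0.98, under the 2-fold rule.

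Smad6, whose protein blocks BMP receptor signalling, was at 5.59, 4.86, 3.97 and 3.83 on its single probe set. Both knockout values were below both control values and lay within 0.14 of each other. The knockout was lower by a factor of 3.08 in Flk1+ cells (-1.62) and 2.04 in Flk1- cells (-1.03). The second difference was just past 2-fold and was -0.99 after a further quantile normalization.

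The Id genes had smaller differences. Id1 was at 5.91 and 6.29 in control Flk1+ and Flk1- cells, and at 6.47 and 5.93 in the knockout ones. It was highest in knockout Flk1+ cells, where it was 0.56 above the control, and 0.36 below the control in Flk1- cells (-0.36). Id2, on the probe set used, was at 6.81, 7.42, 6.82 and 6.78, and a second probe set at 5.23, 5.94, 5.35 and 5.34. On both, control Flk1- cells stood above the other 3 arrays, and the genotype difference in Flk1- cells was -0.64 and -0.60. The remaining Id2 probe set was below the floor on all arrays.

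Id3 was at 7.82, 7.80, 8.07 and 7.75, with a range of 0.32. Its genotype differences of 0.25 and -0.05 were about the size of the spread between probe sets of a gene, or below it. In Flk1+ cells the 3 Id genes were from 0.01 to 0.56 higher in the knockout and in Flk1- cells from 0.05 to 0.64 lower (differences -0.05 to -0.64), and 0 of 3 reached 2-fold in either fraction. Id4, the remaining member of the family, was at 6.13, 6.58, 6.48 and 5.83, with differences of 0.35 and -0.75, but its second probe set above the floor on all but 1 array gave 0.10 and 0.16.

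**Figure D2:**
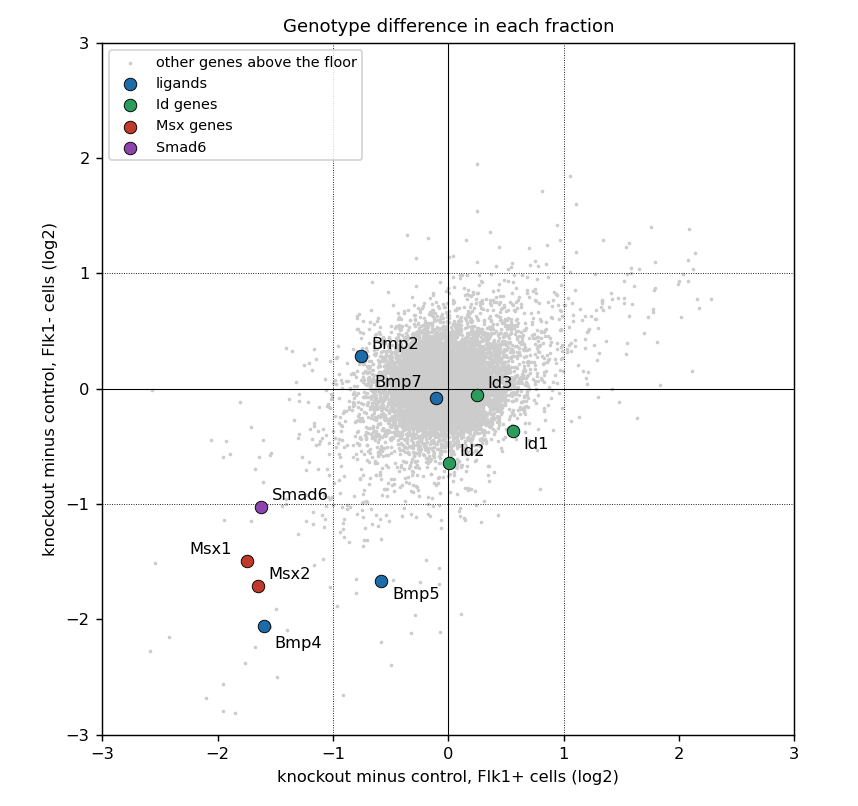
Knockout minus control in Flk1+ cells (x axis, log2) against the same difference in Flk1- cells (y axis, log2), with the 10 genes coloured by class and other genes above the floor in grey. Dotted lines mark 2-fold, and 8 genes lie outside the axes. Bmp4, Msx1, Msx2 and Smad6 are past -1 on both axes, Bmp5 on the y axis only, and the Id genes, Bmp2 and Bmp7 lie inside the lines.

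Of the 10 genes, 5 had their 4 values in one order from high to low, with the control arrays above the knockout arrays and Flk1+ above Flk1- in each line. They were Bmp4, Bmp5, Msx1, Msx2 and Smad6, and all 8 of their probe sets above the floor had that order. It was found in 5.09% of the 10958 genes above the floor. The order was noticed in these values, and it is a description without a test. After a further quantile normalization 4 of the 5 kept it, all but Msx1, whose middle values lie close together. The Id genes had 3 different orders, with Id1 and Id3 highest in knockout Flk1+ cells and Id2 in control Flk1- cells.

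The sort comparison set Flk1+ against Flk1- cells of the same line. In control cells 2 of the 10 genes were 2-fold or more higher in Flk1+ cells, Msx1 (1.63) and Bmp2 (1.37), against 1.2% of 10627 genes. Msx2 was 0.79, Smad6 0.73 and Bmp4 0.66 higher in Flk1+ cells, and Id2, Id1 and Id3 were at -0.61, -0.38 and 0.02. The knockout line had 3 genes past 2-fold on the Flk1+ side, Msx1 (1.38), Bmp5 (1.31) and Bmp4 (1.12), against 1.62% of 10698 genes. In these cells Msx2 was at 0.85, Id1 at 0.54, Bmp2 at 0.33, Id3 at 0.32 and Smad6 at 0.14, and 0 of the 10 genes were 2-fold lower in Flk1+ cells of either line, against 1.51% of all genes in the control and 2.17% in the knockout. The median of the 10 genes was 0.44 in control and 0.43 in knockout cells, against -0.01 and -0.08 for all genes. Each sort comparison shares its arrays with the genotype comparisons, so the 2 kinds of difference are not separate readings.

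**Figure D3:**
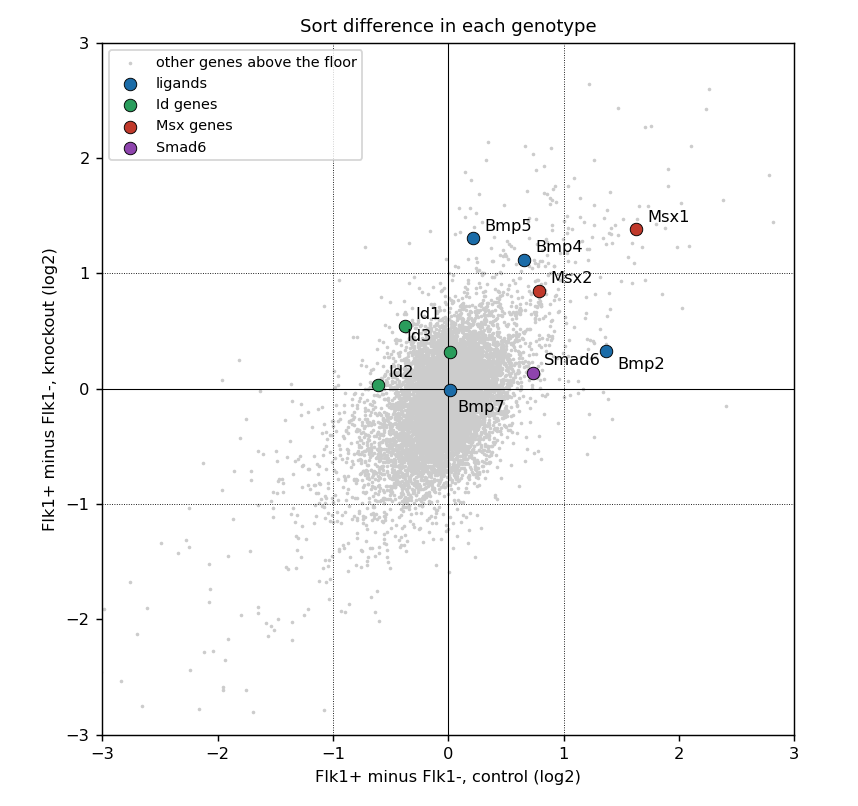
Flk1+ minus Flk1- in control cells (x axis, log2) against the same difference in knockout cells (y axis, log2), with the 10 genes coloured by class and other genes above the floor in grey. Dotted lines mark 2-fold, and 30 genes lie outside the axes. Msx1 is past 1 on both axes, Bmp2 on the x axis only and Bmp4 and Bmp5 on the y axis only.

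To set the fractions against each other, the genotype difference of the Flk1- cells was taken from that of the Flk1+ cells. The result was 1 or more for 1 of the 10 genes, Bmp5 (1.09), against 0.748% of 10958 genes, and -1 or less for 1, Bmp2 (-1.04), against 0.83%. On the probe set used, Bmp5 was lower in the knockout mainly in Flk1- cells. Its other probe sets gave 0.86 and 0.31, and the one at 0.31 was past 2-fold lower in both fractions (-1.02 and -1.33). Bmp2 was at -0.90 to -0.93 after each of the 3 other scalings tried, under the size rule. The value was positive for Id1 (0.92), Id2 (0.65) and Id3 (0.30), it was near 0 for Msx2 (0.06) and Bmp7 (-0.03), and it was 0.46 for Bmp4, -0.25 for Msx1 and -0.59 for Smad6.

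Other genes of the pathway were taken from 5 lists of 64 genes, of which 59 were named on the array. In Flk1+ cells 40 of them were above the floor, with 1 higher in the knockout by 2-fold or more (0.872% of all genes) and 2 lower (0.975%). In Flk1- cells 39 were above the floor, with 0 higher (0.389% of all genes) and 2 lower (0.949%). The median differences were -0.07 and -0.05. The genes that were apart were an antagonist and transcription factor genes known as BMP targets, and none of the other ligands, receptors or Smads with signal was among them.

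Of the other ligands, Bmp6 was at 3.62, 3.35, 3.25 and 2.91, Gdf2 between 3.74 and 4.01 and Bmp8b between 3.01 and 3.29. All 3 were near the floor, and Bmp8a, Bmp10, Bmp15 and Gdf5 were below it on all arrays. Of 11 receptor and co-receptor genes, 8 were above the floor in Flk1+ cells, and 0 of them were 2-fold apart by genotype. The type II receptor genes Acvr2b and Bmpr2 differed by -0.01 and -0.17 in Flk1+ and by -0.11 and -0.21 in Flk1- cells, and the co-receptor gene Tgfbr3 by 0.38 and 0.22. Bmpr1a and Bmpr1b encode type I receptors. For Bmpr1a only 1 probe set could be read (1.63, 1.63, 1.65 and 1.82), which does not show that the gene is silent. That probe set and the one used for Bmpr1b were below the floor on all arrays. Of the other type I receptor genes, Acvr1 was above it on all arrays (4.95, 4.90, 5.22 and 5.02) and Acvrl1 in Flk1+ cells only.

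Of 10 Smads and regulators, 0 were 2-fold apart by genotype. The signal transducer gene Smad1 differed by -0.23 in Flk1+ and 0.06 in Flk1- cells, the common mediator Smad4 by -0.36 and 0.07 and the corepressor gene Ski by -0.05 and -0.16. Smad7, the other inhibitory Smad, was at 6.16, 6.29, 5.36 and 5.73, which gave -0.80 and -0.56. Both knockout values of Smad7 were below both control values, as for Smad6, but under 2-fold.

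Among the antagonists, Cer1, a secreted inhibitor of BMP and Nodal made by endoderm, was at 5.32, 7.45, 7.50 and 8.15. The control Flk1+ array stood below the other 3, and the knockout was 2.18 higher in Flk1+ and 0.70 higher in Flk1- cells. A second Cer1 probe set gave 3.20 and 0.72. Bambi, a pseudoreceptor that BMP induces, was at 6.43, 6.40, 5.63 and 5.93, with differences of -0.79 and -0.47. Fstl1 differed by 0.04 and -0.42 and Twsg1 by -0.08 and 0.25, and Nog and Chrd, which encode the classical inhibitors noggin and chordin, were below the floor on all arrays.

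Among the other targets, Hand1, a transcription factor gene of lateral and extraembryonic mesoderm, was at 9.25, 8.21, 6.76 and 5.00, in the order seen for Bmp4. Its differences were -2.49 and -3.21, and a second probe set gave -2.05 and -2.41. Tbx3, a T-box repressor gene, was at 5.91, 5.11, 4.30 and 4.29, with differences of -1.60 and -0.81, while its 2 other probe sets gave -0.96 and -0.49 in Flk1+ cells. Tbx20, a cardiac T-box gene, was at 8.51, 8.35, 7.66 and 7.32, with -0.85 and -1.02, and its 2 other probe sets gave -0.65 and -1.25 in Flk1+ and -0.89 and -1.05 in Flk1- cells. Hey1, a Notch and BMP target, was at 7.39, 6.97, 7.19 and 6.97. Gata2, a gene of blood and endothelial precursors, differed by 0.15 and -0.02. Of 16 named targets 11 were above the floor in Flk1+ cells, with 2 lower (0.975% of all genes), and 12 in Flk1- cells, with 2 lower (0.949% of all genes) and 0 higher.

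**Figure D4:**
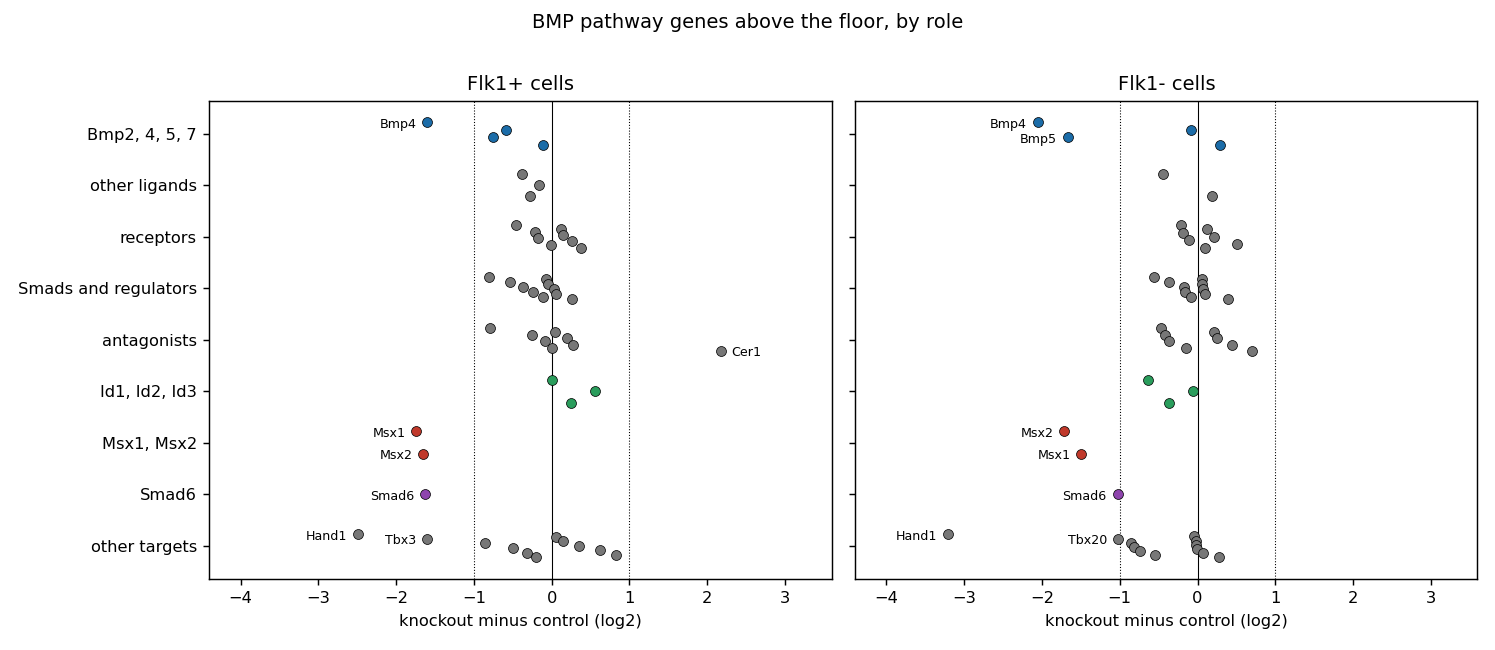
Knockout minus control (x axis, log2) in Flk1+ cells (left) and Flk1- cells (right) for each BMP pathway gene above the floor, in rows by role, with the 10 genes coloured and the other genes grey. Dotted lines mark 2-fold and genes at or past them are named. The values below the lower line are those of Bmp4, Bmp5, Msx1, Msx2, Smad6, Hand1, Tbx3 and Tbx20, while the receptors and the Smads other than Smad6 stay inside the lines.

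Marker lists of cell types were read on the same arrays, and they did not all go one way. A list of 12 lateral plate and cardiac mesoderm genes, among them Hand1, Foxf1 and Tnnt2, had 10 of 11 members with signal lower in knockout Flk1+ cells, 6 of them 2-fold or more (0.975% of all genes). In Flk1- cells 12 of 12 were lower, 7 of them 2-fold or more (0.949% of all genes). Its summed level (log2 of the sum of the linear values) was 10.80, 10.59, 9.55 and 9.14. The list shares Hand1, Hand2, Tbx20 and Nkx2-5 with the BMP targets. A list of 8 fibroblast (feeder cell) genes had a summed level of 7.86, 6.81, 6.80 and 6.10, with control Flk1- and knockout Flk1+ cells almost equal. Its members Col1a2, Thy1, Dcn and Lum were below the floor on all arrays. Of the others, Col1a1 (6.53, 4.68, 3.99 and 3.17) and Col3a1 (5.10, 3.30, 3.04 and 2.85) had the order of Bmp4. Both knockout values of Col3a1 and the knockout Flk1- value of Col1a1 were below the floor. Pdgfra (4.62, 4.67, 4.32 and 3.83) and Pdgfrb (5.83, 4.93, 5.56 and 4.18) did not have that order.

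The pluripotency list went the other way, with a summed level of 7.41, 9.51, 8.40 and 10.25 over 9 named genes, and the epithelial list was at 10.33, 10.97, 11.00 and 11.33 over 8. Of the pluripotency genes with signal, 5 of 7 were higher in knockout Flk1+ cells, 4 of them 2-fold or more (0.872% of all genes). In Flk1- cells 9 of 9 were higher, 1 of them 2-fold or more (0.389% of all genes). Of the epithelial genes, 7 of 8 were higher in each fraction, 4 of them 2-fold or more in Flk1+ and 0 in Flk1- cells. The hemato-endothelial list, which holds Kdr, the gene of the sorted marker, was at 10.14, 7.12, 10.05 and 6.70. The primitive erythroid list was at 7.04, 11.20, 5.43 and 5.43. In knockout cells only its members Gata1 and Epor were above the floor, Epor in Flk1+ cells alone. The endoderm list, which also holds Cer1, was at 8.47, 9.22, 9.06 and 9.51. Its members went both ways, with 5 of 8 higher in knockout Flk1+ cells and 4 of 6 in knockout Flk1- cells. Among those lower, Ttr differed by -2.10 and -2.68. The trophoblast list, which also holds Hand1, was at 9.65, 8.77, 7.96 and 7.88, with Elf5 below the floor on all arrays. Member by member, Hand1 included, 3 of 6 were higher in knockout Flk1+ cells and 4 of 6 in knockout Flk1- cells, with median differences of -0.10 and 0.31. The neural crest and surface ectoderm list, other cells that express Msx genes, was at 6.29, 6.26, 6.54 and 6.31, with Sox10, Tfap2a, Krt14 and Dlx5 below the floor on all arrays. The part of these cell types in the differences of the BMP genes was not tested.

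The genes whose pattern was most like that of a member were sought among 867 named genes that were above the floor on at least 1 array and ranged over at least 1 log2 unit. The measure was the root mean square difference over the 4 arrays after each gene was centred on its own mean. Closest to Bmp4 was Rgs5, a regulator of G protein signalling found in pericytes, at 0.07, followed by Msx2 (0.13) and Ahnak (0.22). Closest to Msx2 were Bmp4 (0.13), Rgs5 (0.16) and Mex3b (0.20). The 3 other probe sets of Rgs5 were at 0.15 to 0.30 from Bmp4, while those of Ahnak above the floor were at 0.86 to 0.87.

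Closest to Smad6 were Tbx3 (0.08), Twist2 (0.11) and the aminopeptidase gene Anpep (0.13). Twist2 was above the floor on 1 array only, and the other probe sets of Tbx3 were at 0.27 to 0.50 from Smad6. Closest to Id1 were Msi1 (0.21), which encodes an RNA-binding protein, the phosphatase gene Dusp4 (0.24), which responds to ERK signalling, and Ssty1 (0.27), which was above the floor on 1 array only. Id1 itself ranged over 0.56, less than the 1 log2 unit asked of the genes searched. That rule keeps its distances from being as small as those for Bmp4 and Smad6, so they cannot be compared. With 4 arrays such a likeness rests on few values.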

How the data were processed

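Expression was measured on 4 arrays, 1 per group. The table holds log2 expression values per probe set as the authors deposited them. RMA and limma are named in the submitters' processing notes, with no version or role, and the scale was taken from the range of the values. They were used without further normalization in the main setting. The platform annotation gave 1 gene for 28898 probe sets, several for 551, which were not named, and none for 15588, and 104 control probe sets were left out.

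Values were computed with Python 3.11.15 and pandas 2.3.3, and the other scalings with limma 3.58.1. The column medians were 3.07 to 3.11. The number of arrays limits the precision, no test was run, and the arrays' labels do not say whether both fractions of a line came from the same culture.

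The 10 genes, the lists and the rules were chosen with earlier results of these data known. The genes named were the 10 with all probe sets, the genes of the 5 pathway lists that were 2-fold apart by genotype, up to 3 of highest mean per list, Snai1, Kdr and, for Bmp4, Id1, Msx2 and Smad6, the 3 nearest in pattern. Other genes were named after their values were seen. The alternatives changed the size rule (1.5-fold or 3-fold), the floor (the median, none, or low values raised to it), the scaling (quantile, median centring, or cyclic loess with span 0.3 and 3 rounds) and the choice of probe sets (averaged per gene, or with the _s_at and _x_at types left out). The mean over probe sets above the floor was added after seeing the data.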

Additional observations from a re-analysis of the deposited data

Results flagged for a closer look

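The genes Bmp2, Id1, Id2 and Id3 had genotype differences of opposite sign in the sorted fractions, each on 1 array per group, so the difference between fractions was not tested. Bmp2, Id1 and Id3 had 1 probe set each, so no second reading within the arrays was available for them. Bmp2 was at -0.76 in Flk1+ and 0.28 in Flk1- cells, a difference of -1.04. Id1 was at 0.56 and -0.36, a difference of 0.92. Id2 was at 0.01 and -0.64, a difference of 0.65, and its Flk1+ value is near 0. Id3 was at 0.25 and -0.05, a difference of 0.30 that is close to the SD of 0.32 between probe sets of a gene for this quantity.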

How the results depend on the processing

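The labels carry no replicate numbers that could pair samples, and with 1 array per group no array could be left out of a comparison. An additive fit of genotype and fraction over the 4 arrays, which would take the difference between the fractions as its error, was not run. Over the alternatives, 137 of 155 counts and medians and 430 of 450 single differences were labelled the same, and no 2-fold difference changed sign. A count was the same within a ratio of 1.5, and a 2-fold difference if it stayed 2-fold. Medians and smaller differences were the same if they moved by less than the SD between probe sets. The floor settings could not move a single difference, as no value used for the 10 genes was below the floor. The choice of probe sets could not move the 5 genes with 1 probe set. With the 1.5-fold rule, 5 genes were higher and 1 lower in control Flk1+ than Flk1- cells (370 and 507 of all 10627 genes), and the difference of differences counted 3 positive and 2 negative (431 and 761 of 10958). With the 3-fold rule, 3 genes were lower in knockout Flk1- cells (38 of 10538), 1 was higher in Flk1+ cells of the control (47 of 10627) and 0 of the knockout (57 of 10698), and 0 were counted either way in the difference of differences (17 and 8 of 10958). For the difference of differences, quantile normalization, centring and cyclic loess each gave 2 positive (Bmp5 and Id1) and 0 negative, and the mean over a gene's probe sets, all or those above the floor, gave 0 positive. The median in Flk1- cells was -0.62 without probe sets ending in _s_at or _x_at, where Msx1 was at -0.59. Centring on the median moved the median of all genes from -0.08 to 0.09 for the sort difference in knockout cells and from -0.07 to 0.05 for the difference of differences. It moved the split of all genes higher and lower from 93 and 104 to 119 and 84 for genotype in Flk1+ cells, from 173 and 232 to 222 and 147 for the sort in knockout cells, and from 82 and 91 to 118 and 52 for the difference of differences. Bmp7 and Id2 had differences near 0 whose sign changed under some alternatives.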
